A study of Homo sapiens with 6 samples.

Results

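The clade B serpins are the intracellular branch of the serpin family of protease inhibitors. The genes SERPINB1 to SERPINB10 were selected by symbol, and all 10 were found, among 60725 rows in each expression table and among 13 clade B genes in all. The other 3, SERPINB11, SERPINB12 and SERPINB13, served for comparison. Because the family was singled out with the results of this comparison already known, the differences of the 10 genes between the groups are given as a description and support nothing by themselves.

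The tumours were xenografts of the human liver cancer cell line MHCC97L (hepatocellular carcinoma, an established line). Their RNA was sequenced in 3 control libraries (Ctrl, A to C) and in 3 libraries labelled as treated with recombinant human lumican (rhLUM, A to C), a secreted proteoglycan of the extracellular matrix. All 6 libraries come from the same line grown in a host, so any host cells in a tumour add RNA of another species. The sources used here do not give the dose, the route, the duration, the host's strain and age, or whether libraries of a group are separate animals, and the spread between libraries may therefore be technical. Values are TPM, the share of a library's transcripts after division by transcript length. The depth behind them is unknown.

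A serpin holds out a reactive loop near its carboxyl end as bait. The target protease cuts the loop and is trapped in a covalent complex, and the sequence of the loop decides which protease is caught. Clade B members lack a classical secretion signal and act mostly inside the cell, where they are known for guarding it against leaked granule and lysosomal proteases. In human liver cancer SERPINB3 and SERPINB4, first described as squamous cell carcinoma antigens, have long been studied as tumour antigens, and SERPINB9 is known as the shield of cells against granzyme B.

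SERPINB3 and SERPINB4 are a recent duplication, and their sequences are shown because both fell far and because they differ most in the last exon, which encodes the reactive loop. The coding sequences (GENCODE release 29, GRCh38) were 95.2% identical over 1173 bases, with 56 differences. Other pairs of the 13 genes reached 72.8% at most and had a median of 56.7%. The stretch of 120 bases with the most differences, 18 against a median of 4 in such windows, covers codons 317 to 357 in the last of 8 exons. It is printed from the transcript strand, with the bases that differ between the genes in capitals.
SERPINB3, chr18:63655761-63655880, minus strand: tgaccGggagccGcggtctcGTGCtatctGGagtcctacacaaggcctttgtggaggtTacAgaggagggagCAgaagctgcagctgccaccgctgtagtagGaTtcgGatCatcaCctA
SERPINB4, chr18:63637823-63637942, minus strand: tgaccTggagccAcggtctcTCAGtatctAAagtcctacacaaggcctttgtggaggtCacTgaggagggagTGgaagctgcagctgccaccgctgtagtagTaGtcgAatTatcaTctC

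The 250 bases before the RefSeq start of each gene (GRCh38.p14) were closer still, with 98.8% identity and 3 differences. Counted from 1 at the 5′ end, with the SERPINB3 base first, these were G126A, G201A and C228T. They are in capitals.
SERPINB3, chr18:63661894-63662143, minus strand: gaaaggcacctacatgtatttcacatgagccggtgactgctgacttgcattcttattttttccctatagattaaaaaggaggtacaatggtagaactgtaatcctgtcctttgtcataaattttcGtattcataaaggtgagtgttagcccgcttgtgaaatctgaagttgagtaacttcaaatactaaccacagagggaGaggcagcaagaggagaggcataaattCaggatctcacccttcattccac
SERPINB4, chr18:63644257-63644506, minus strand: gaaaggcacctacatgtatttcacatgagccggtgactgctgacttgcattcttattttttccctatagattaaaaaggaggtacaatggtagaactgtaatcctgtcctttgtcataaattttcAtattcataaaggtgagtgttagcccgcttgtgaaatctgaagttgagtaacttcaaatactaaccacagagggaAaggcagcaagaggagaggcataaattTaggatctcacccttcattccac
The matching window of SERPINB7, the third gene that fell far, is shown for contrast. RefSeq gives that gene 3 windows, and this is the first of them, with motif matches in capitals.
SERPINB7, chr18:63752807-63753056, plus strand: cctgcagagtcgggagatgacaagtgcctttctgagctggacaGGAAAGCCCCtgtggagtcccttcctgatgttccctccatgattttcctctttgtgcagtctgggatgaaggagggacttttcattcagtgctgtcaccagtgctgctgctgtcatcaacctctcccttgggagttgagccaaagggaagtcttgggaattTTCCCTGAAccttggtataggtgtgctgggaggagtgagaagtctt

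These windows were searched on both strands for 4 motifs. The capitals in the SERPINB7 window are a match to the NF-kB letters (GGG and TTCC with 3 bases of any kind between) on the opposite strand, at -207 to -198 from the start, and a match to TTCNNNGAA (STAT), at -46 to -38. The other SERPINB7 windows each held 2 matches to TGANTCA (AP-1) and none to the other motifs. The SERPINB3 and SERPINB4 windows held no match to any of these or to TTGCNNAA (C/EBP). Of 35116 promoter windows of the same length, 5.67% held the NF-kB letters, 6.57% the STAT letters, 6.57% the AP-1 letters and 9.05% the C/EBP letters. Of the 17 windows of clade B genes, 1, 4, 7 and 2 did in that order. These windows are not all of different genes. SERPINB6 has 4, some of which overlap, and SERPINB7 has 3, while SERPINB10 and SERPINB11 have none. A match describes letters only.

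SERPINB3 encodes an inhibitor of papain-like cysteine proteases such as cathepsins L, K and S. It was at 37.96, 38.05 and 38.63 TPM in Ctrl and at 1.42, 1.13 and 0.89 TPM in rhLUM. The groups lay far apart, and the rhLUM mean was 3.0% of the Ctrl mean. The log2 fold change was -4.20 (SE 0.10). All log2 fold changes here are rhLUM minus Ctrl of log2(TPM + 1), which understates changes of low genes. SERPINB4, whose product inhibits serine proteases such as cathepsin G and mast cell chymase, was at 31.1, 32.4 and 29.5 TPM in Ctrl and at 0.97, 1.29 and 1.36 in rhLUM. It fell to 3.89% of the Ctrl mean, with a log2 fold change of -3.86 (SE 0.09). With a pseudocount of 0.1 in place of 1, the log2 fold changes were -4.96 and -4.58.

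All 3 rhLUM libraries lay below all 3 Ctrl libraries for both genes. Of the runs of 31 bases in the SERPINB3 transcript, 39.6% also occur in SERPINB4, and 40.2% of those of SERPINB4 occur in SERPINB3. No run of 151 bases, the read length, is shared unchanged. Summed, both genes stood at 69.2 ± 1.17 TPM in Ctrl, against 2.35 ± 0.091 with rhLUM (SD, n = 3). SERPINB3 made up 55.2 ± 1.36% of that sum in Ctrl. In rhLUM its share ranged from 39.6% to 59.4%, on both sides of the Ctrl values, at levels near 1 TPM for each gene.

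SERPINB7, called megsin, is expressed in skin and in the mesangium of the kidney. It was at 14.56, 14.89 and 14.21 TPM in Ctrl and at 0.47, 0.5 and 0.46 in rhLUM. Its rhLUM mean was 3.28% of that in Ctrl, a log2 fold change of -3.40 (SE 0.08), or -4.67 with the smaller pseudocount. No run of 31 bases of its transcript occurs in another gene. Of 14781 genes tested, 13 had a lower fold change than SERPINB3, 19 than SERPINB4 and 31 than SERPINB7. These 3 were the members with a called log2 fold change at or below -1, which 4.47% of all genes tested had, and all 3 were at or below -3, as were 0.257% of all genes.

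**Figure D1:**
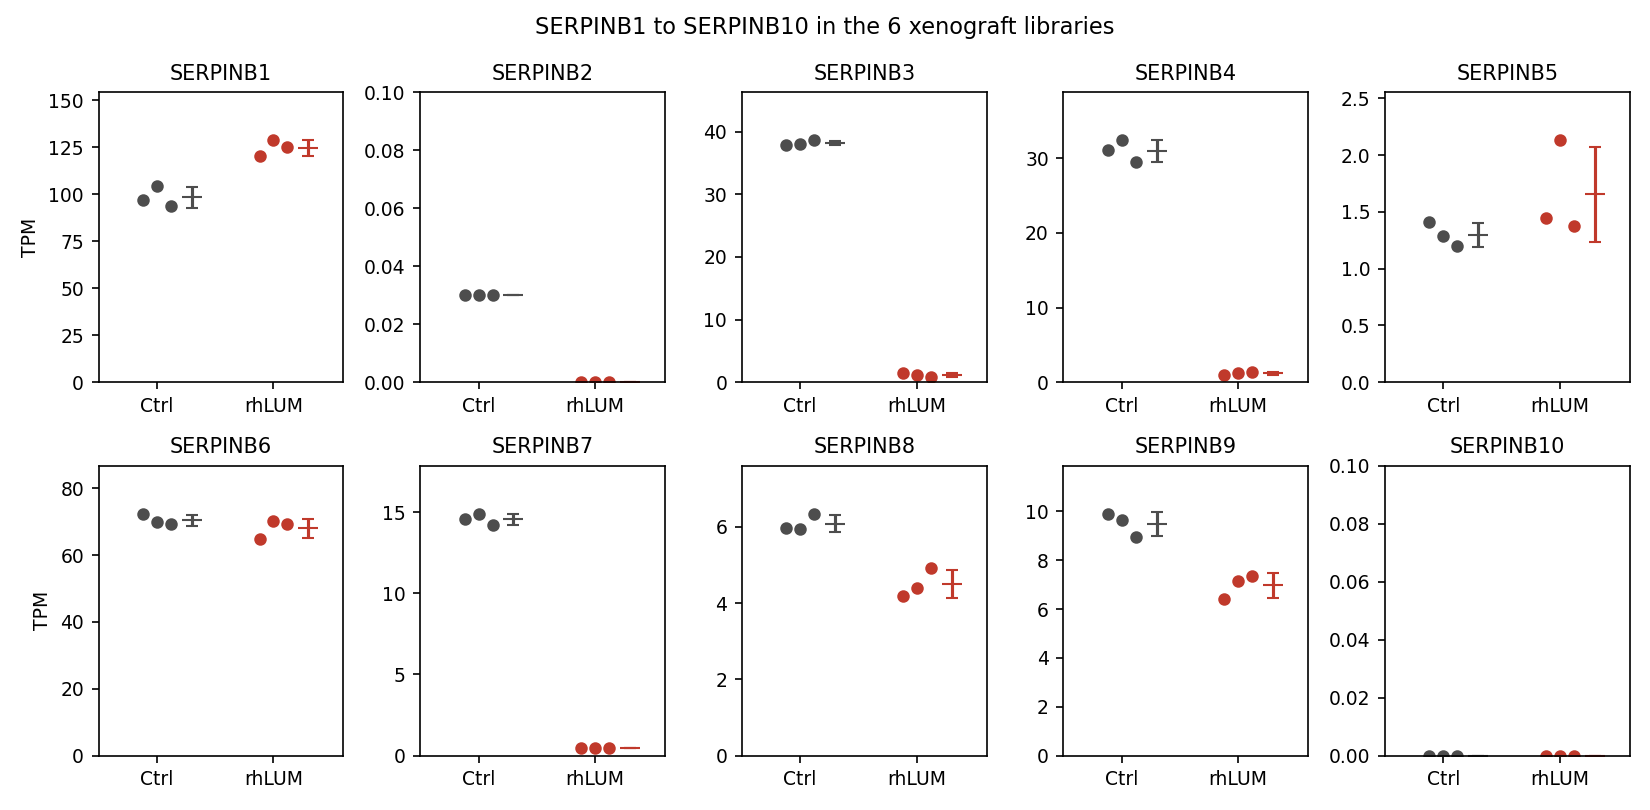
TPM of the 10 genes in each library (points), with mean and SD (bars) beside them, and an axis from 0 for each gene. SERPINB3, SERPINB4 and SERPINB7 drop from between 14.21 and 38.63 TPM to between 0.46 and 1.42, whereas SERPINB6 overlaps between the groups.

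SERPINB1 is the inhibitor of neutrophil elastase, cathepsin G and proteinase 3 in the cytosol of myeloid and epithelial cells, and was the most abundant member. It was at 97.17, 104.34 and 93.5 TPM in Ctrl and at 120.11, 128.69 and 125.14 in rhLUM, with no overlap. Its log2 fold change was 0.34 (SE 0.05), and it was the only member whose call was higher. That call depends on the scaling of the libraries. Under median-of-ratios scaling, with a shift of -0.20 in the median over all genes, the log2 fold change was 0.12 and the call was lost.

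SERPINB6, an inhibitor of trypsin-like proteases and cathepsin G with a broad tissue range, was at 72.32, 69.94 and 69.16 TPM in Ctrl and at 64.73, 70.06 and 69.27 in rhLUM. The groups overlapped and the log2 fold change of -0.05 (SE 0.04) did not pass as deposited. After median-of-ratios scaling it was -0.27 and on rescaling without mitochondrial genes -0.16, and under both settings it passed as lower.

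SERPINB9, the inhibitor of granzyme B, was at 9.9, 9.63 and 8.96 TPM in Ctrl and at 6.4, 7.17 and 7.37 in rhLUM. SERPINB8, which inhibits the proprotein convertase furin, was at 5.97, 5.95 and 6.34 TPM in Ctrl and at 4.18, 4.4 and 4.91 in rhLUM. Neither gene's groups overlapped, and both fell to about the same degree, to 73.5% and 73.9% of the Ctrl mean. The log2 fold changes were -0.40 (SE 0.07) for SERPINB9 and -0.37 (SE 0.08) for SERPINB8. Of the runs of 31 bases of SERPINB8, 9.92% occur in the overlapping gene HMSD.

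SERPINB5 encodes maspin, a member without protease inhibitory activity that is studied as a tumour suppressor. It was low in all libraries, at 1.41, 1.29 and 1.2 TPM in Ctrl and 1.45, 2.13 and 1.38 in rhLUM. The groups overlapped through the third rhLUM library, and the log2 fold change of 0.20 (SE 0.16) did not pass. SERPINB2, an inhibitor of urokinase, was listed at 0.03 TPM in every Ctrl library and at 0 in every rhLUM library. SERPINB10, a nuclear serpin of blood cells, was listed at 0 in all 6. These last 2 had a mean under 1 TPM and were not tested.

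Of the 8 members tested, 1 was higher and 5 were lower with rhLUM (limma, adjusted p under 0.05), and the 2 groups of libraries did not overlap for 6. Across all genes tested, 66.8% were called, 44.5% higher and 22.3% lower. Groups that did not overlap were found for 71.4% of all genes, and for 24.3% with rhLUM below Ctrl, against 6 and 5 of the 8 members. SERPINB7 was kept for testing through its Ctrl level alone, since its rhLUM mean was under 1 TPM. The median log2 fold change of the 8 was -0.38, and that of all genes was 0.16. After median-of-ratios scaling none was higher and 6 were lower, with medians of -0.57 and -0.04. Leaving out any 1 library changed no call of these 8.

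**Figure D2:**
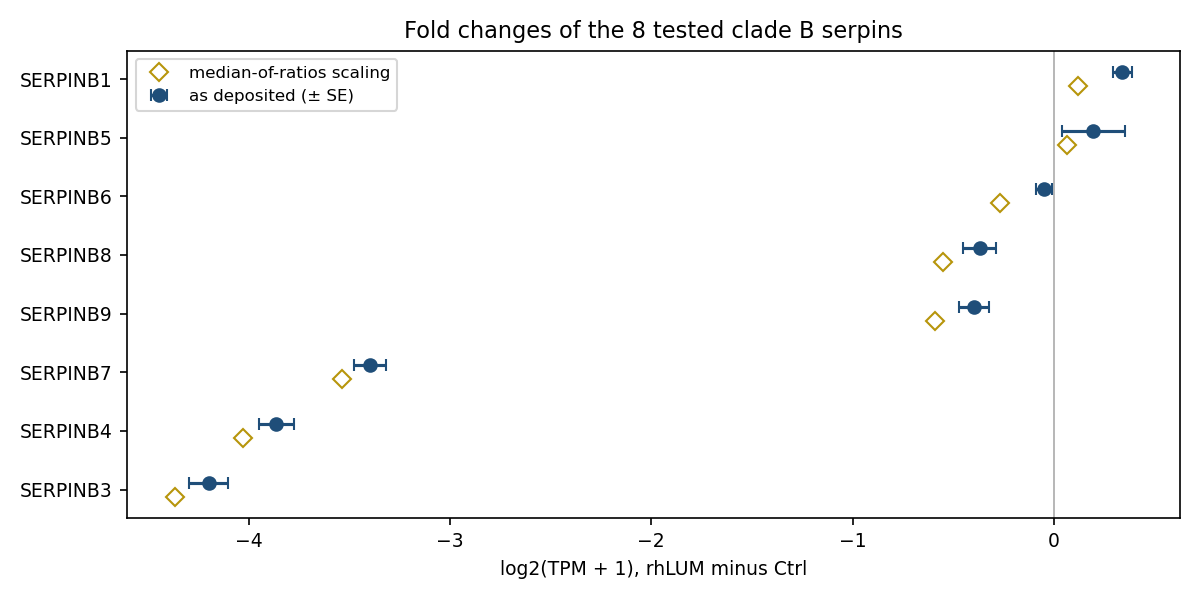
Log2 fold changes of the 8 tested members, as deposited (filled, with SE) and after median-of-ratios scaling (open). Under both settings SERPINB3, SERPINB4 and SERPINB7 lie below -3.3 and the other 5 above -0.7. Scaling moves every point to the left, and SERPINB1 comes close to 0.

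In level, the Ctrl order was SERPINB1, SERPINB6, SERPINB3, SERPINB4, SERPINB7, SERPINB9, SERPINB8 and SERPINB5. No neighbours in this order had overlapping libraries, and the closest pair in the upper part, SERPINB3 and SERPINB4, ranged from 37.96 to 38.63 and from 29.5 to 32.4 TPM. In rhLUM the order was SERPINB1, SERPINB6, SERPINB9, SERPINB8, SERPINB5, SERPINB4, SERPINB3 and SERPINB7. There SERPINB4 and SERPINB3 overlapped, at 1.21 ± 0.21 and 1.15 ± 0.27 TPM, and the lowest SERPINB5 library (1.38) was only just above the highest of SERPINB4 (1.36). SERPINB3 and SERPINB4 stood directly below SERPINB6 in Ctrl and below maspin in rhLUM.

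The 10 genes together reached 269 ± 7.54 TPM in Ctrl, against 209 ± 8.04 with rhLUM (SD, n = 3). The 3 members on chromosome 6, SERPINB1, SERPINB6 and SERPINB9, gave 66.2 ± 0.47% of it in Ctrl and 95.7 ± 0.074% in rhLUM. Their own sum was 171.62 to 183.91 TPM in Ctrl and 191.24 to 205.92 in rhLUM. The 7 members on chromosome 18 summed to 89.91, 92.61 and 91.03 TPM in the Ctrl libraries C, B and A and to between 8.49 and 9.45 in rhLUM. SERPINB1 alone went from 36.5 ± 1.10% to 59.8 ± 0.38% of the family's level.

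**Figure D3:**
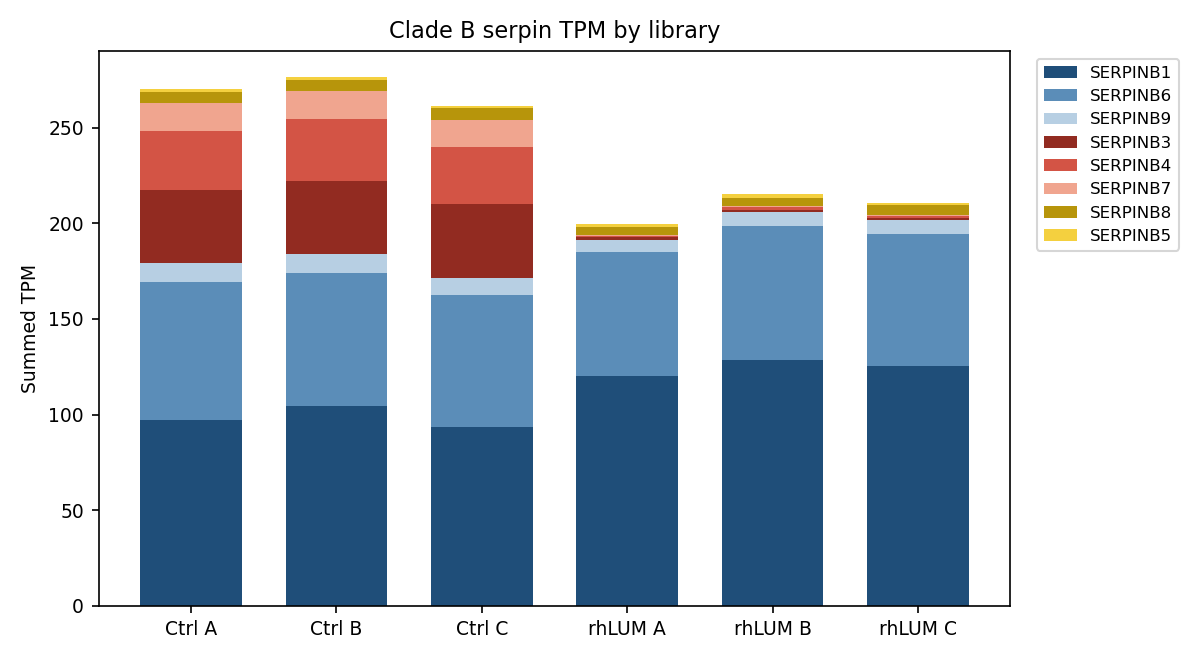
Stacked TPM of the 8 tested members in each library, with chromosome 6 members in blue. The red segments (SERPINB3, SERPINB4 and SERPINB7) are wide in Ctrl and thin in rhLUM, while that of SERPINB1 is taller in rhLUM. The sums of all 10 genes were 261.53 to 276.52 TPM in Ctrl and 199.73 to 215.37 in rhLUM.

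The genes lie in 2 clusters (GENCODE release 29, GRCh38). On chromosome 6, SERPINB1 (2832332 to 2842006), SERPINB9 (2887266 to 2903280) and SERPINB6 (2948159 to 2972165) are all on the minus strand. On chromosome 18 the cluster runs from SERPINB5 (63476761 to 63505085) to SERPINB8 (63969925 to 64019779). The 3 genes that fell far lie in its middle. The starts of SERPINB4, SERPINB3 and SERPINB7 lie 168, 185 and 276 kb from that of SERPINB5. The genes at either end of the cluster moved little, SERPINB5 by 0.20 and SERPINB8 by -0.37.

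Among the 3 clade B genes outside the selected list, SERPINB11 starts between SERPINB4 and SERPINB3. It was at 2.0, 2.01 and 2.28 TPM in Ctrl and at 1.38, 1.39 and 1.2 in rhLUM, with no overlap, and fell by 0.41 on the log2 scale (SE 0.12, limma adjusted p = 0.0201). The call was lost without Ctrl replicate C (limma adjusted p = 0.0522) and with a replicate block (limma adjusted p = 0.0574). Its annotated span covers SERPINB3 on the other strand, and 33.8% of the runs of 31 bases of SERPINB3 occur in SERPINB11 transcripts on one strand or the other. Strand use in counting is not given in the sources used here, so reads of these genes cannot be told apart there. Of the runs of 31 bases of SERPINB4, 8.96% also occur in SERPINB11 transcripts on one strand or the other. SERPINB13, an inhibitor of cathepsin L in keratinocytes, was at 0.44, 0.21 and 0.31 TPM in Ctrl and at 0.02, 0.07 and 0 in rhLUM. SERPINB12 was at 0.14 TPM or less in all libraries. The latter 2 were under the level for testing.

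**Figure D4:**
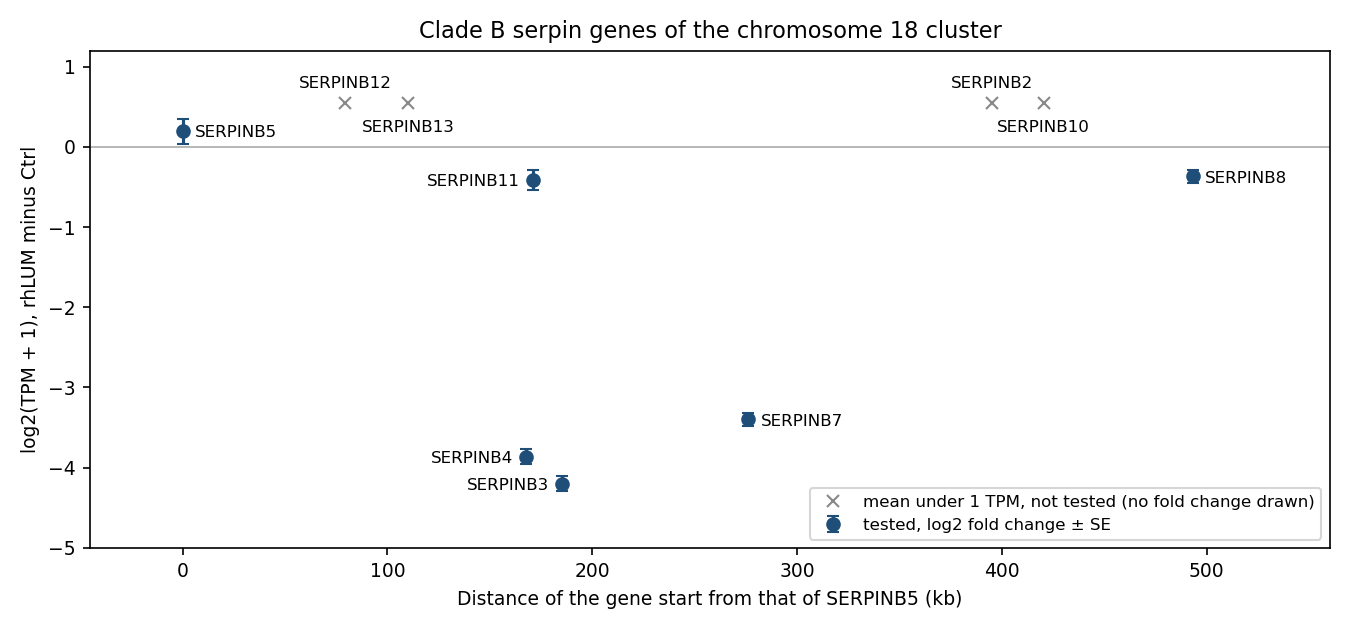
Log2 fold changes (± SE) of clade B genes in the chromosome 18 cluster against the distance of each start from that of SERPINB5, in kb, with untested genes as crosses at an arbitrary height. The 3 points below -3 are SERPINB4, SERPINB3 and SERPINB7, in the middle of the cluster, with SERPINB11 among them at -0.41.

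The tested genes of other kinds near the clusters did not show falls of that size. Within 500000 bases of a member on chromosome 18, 15 other genes are annotated, and the 2 tested, KDSR and VPS4B, lie beyond SERPINB5. No gene of another kind inside that cluster was tested. KDSR, an enzyme of sphingolipid synthesis, rose by 0.63 (SE 0.06, limma adjusted p = 9.13e-05), and VPS4B, an ATPase of endosomal sorting, rose by 0.82 (SE 0.04, limma adjusted p = 4.57e-06). On chromosome 6, 11 of 30 such genes were tested, and 6 were higher and 4 lower (median 0.14, range -0.49 to 0.56). Counted among the 11 was SERPINB9P1, a pseudogene by its symbol and a noncoding RNA in the annotation. It lies between SERPINB1 and SERPINB9 and fell by 0.48 on the log2 scale (SE 0.10, limma adjusted p = 0.00494).

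The genes whose profile over the 6 libraries lay nearest to that of SERPINB3, by Euclidean distance of centred log2(TPM + 1), were CCL20 (distance 0.34), TNFSF14 (0.39), CXCL2 (0.41), TNIP3 (0.43) and SPINK1 (0.45). CCL20 and CXCL2 encode chemokines, TNFSF14 a cytokine of the TNF family, TNIP3 an inhibitor of NF-kB signalling and SPINK1 a secreted trypsin inhibitor. SERPINB4 was ninth nearest (rank 9, distance 0.62) and SERPINB7 came at rank 21 (distance 1.01). The SPINK1 level was 496 ± 15.8 TPM in Ctrl, against 32.0 ± 1.27 with rhLUM (SD, n = 3). With 2 groups so far apart, likeness here means above all a fold change of like size.

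The proteases that clade B serpins can meet were looked at next. For the lists that follow, the shares over all genes tested were 44.5% called higher and 22.3% lower, with a median of 0.16. After median-of-ratios scaling, 4640 of 14826 genes were higher and 5032 lower. Granule serine proteases of leukocytes and mast cells, the targets of SERPINB1, SERPINB4, SERPINB6 and SERPINB9 in those cells, were near 0. All 13 were under 1 TPM in every library, 6 of them at 0 throughout, and none was tested. Their summed level was 0.2 to 0.99 TPM in Ctrl and 0 to 0.23 in rhLUM. Neutrophil elastase, ELANE, was at 0 in 5 libraries and at 0.06 TPM in Ctrl C. Leukocytes and mast cells of a xenograft would be host cells, whose transcripts these values for human genes may miss. The low values therefore do not show that such proteases were absent from the tumours.

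Cathepsins, the lysosomal proteases, were abundant and went both ways. Of 14 tested, 6 were higher and 5 lower (4 and 7 after median-of-ratios scaling), and the median log2 fold change was 0.09. CTSL and CTSS, targets of SERPINB3, overlapped between the groups. CTSL was at 470.28, 474.17 and 478.58 TPM in Ctrl and at 465.12, 462.74 and 475.34 in rhLUM, and CTSS at 83.46, 83.01 and 84.09 and at 79.82, 86.96 and 86.82. Their log2 fold changes, -0.02 and 0.02, did not pass as deposited, and after median-of-ratios scaling, at -0.24 and -0.20, both passed as lower. CTSK, the third such target, fell from 13.1 ± 0.27 to 7.67 ± 0.085 TPM (SD, n = 3, limma adjusted p = 1.99e-05). CTSE, an aspartic protease of the gastric and intestinal epithelium, changed by -1.51 and CTSC, which activates granule proteases, by -0.43. CTSD, CTSA and CTSB changed by 0.41, 0.33 and -0.26.

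Cystatins are the other family that inhibits cysteine cathepsins. Of 4 tested, 2 rose and 1 fell (1 and 2 after scaling). CSTB, which acts inside the cell, was at 443.5, 483.94 and 455.87 TPM in Ctrl and at 195.73, 184.84 and 202.48 in rhLUM, a log2 fold change of -1.24 (SE 0.04, limma adjusted p = 7.47e-07). The secreted CST1 and CST3 rose by 1.28 and 0.32, and the call of CST3 was lost after scaling (limma adjusted p = 0.104).

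In plasminogen activation, where SERPINB2 acts, 2 of 7 tested genes rose and 2 fell (2 and 4 after scaling). PLAU, urokinase itself, was at 15.48, 14.67 and 13.72 TPM in Ctrl and at 13.07, 14.5 and 13.54 in rhLUM. These groups overlapped and the gene did not pass as deposited, while after scaling it passed as lower. Its receptor PLAUR fell by 0.82 on the log2 scale (limma adjusted p = 5.88e-05) and PLAT, the tissue activator, by 0.64 (limma adjusted p = 0.00472). ANXA2 and S100A10, which form a plasminogen receptor, rose by 0.40 and 0.29.

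Of 32 trypsin-like and furin-like proteases 10 were tested, of which 3 rose and 4 fell (2 and 6 after scaling). FURIN, the target of SERPINB8, was at 11.18, 11.25 and 12.2 TPM in Ctrl and at 17.28, 16.2 and 15.48 in rhLUM, a rise of 0.47 (SE 0.06, limma adjusted p = 4.42e-04). Its relative PCSK5 rose by 1.54 and PCSK7 fell by 0.54. The transmembrane protease gene HPN, with PRSS22 and the thrombin gene F2, changed by -0.88, -1.05 and -0.27.

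SERPINB1 is also known as a restraint on inflammatory caspases. Of 10 tested caspase and gasdermin genes, 1 rose and 5 fell (1 and 6 after scaling). Across all genes tested, 66.8% were called, 44.5% higher and 22.3% lower. The median log2 fold change was -0.19. CASP1 was at 5.84, 8.84 and 5.69 TPM in Ctrl and at 0.38, 1.61 and 0.83 in rhLUM, a log2 fold change of -2.03 (SE 0.26, limma adjusted p = 3.45e-04). It was kept for testing through its Ctrl level alone, since its rhLUM mean was 0.94 TPM. PYCARD, the adaptor of the inflammasome, changed by -0.68, the pore-forming GSDMB and GSDMD by -0.90 and -0.31, and CASP4 by -0.21.

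Among 10 tested serpins of other clades, mostly secreted, 3 rose and 4 fell (3 and 5 after scaling). The median log2 fold change was -0.15. Of 22 such genes listed, 21 had a row with a symbol of their own, and SERPINA3 had none. With shared symbols summed, 3 rose and 5 fell. SERPINF1, which encodes pigment epithelium-derived factor, changed by -1.23, SERPINA1, the circulating elastase inhibitor, by -0.87, and SERPINE2, an inhibitor of thrombin and urokinase, by -0.71. SERPINA6, the carrier of corticosteroids, and SERPINA10, an inhibitor of coagulation, rose by 1.32 and 1.09, and the collagen chaperone SERPINH1 by 0.30.

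Of 23 tested transcription factors and upstream signals linked to clade B serpins, 10 rose and 11 fell (7 and 13 after scaling). Their median log2 fold change was 0.0053. The cytokine genes fell farthest, with log2 fold changes of -5.26 for IL6, -4.80 for IL1B and -3.22 for IL1A. IL6 was kept for testing through its Ctrl level alone, with an rhLUM mean of 0.52 TPM. STAT3, the factor downstream of IL6, was at 45.08, 46.57 and 45.81 TPM in Ctrl and at 42.17, 38.45 and 38.98 in rhLUM, a change of -0.20 (limma adjusted p = 0.00625). CEBPB and ELF3, a pair of transcription factors active in inflamed epithelium, changed by -0.96 and -0.36, and KLF4, a factor of epithelial differentiation, by 0.66.

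**Figure D5:**
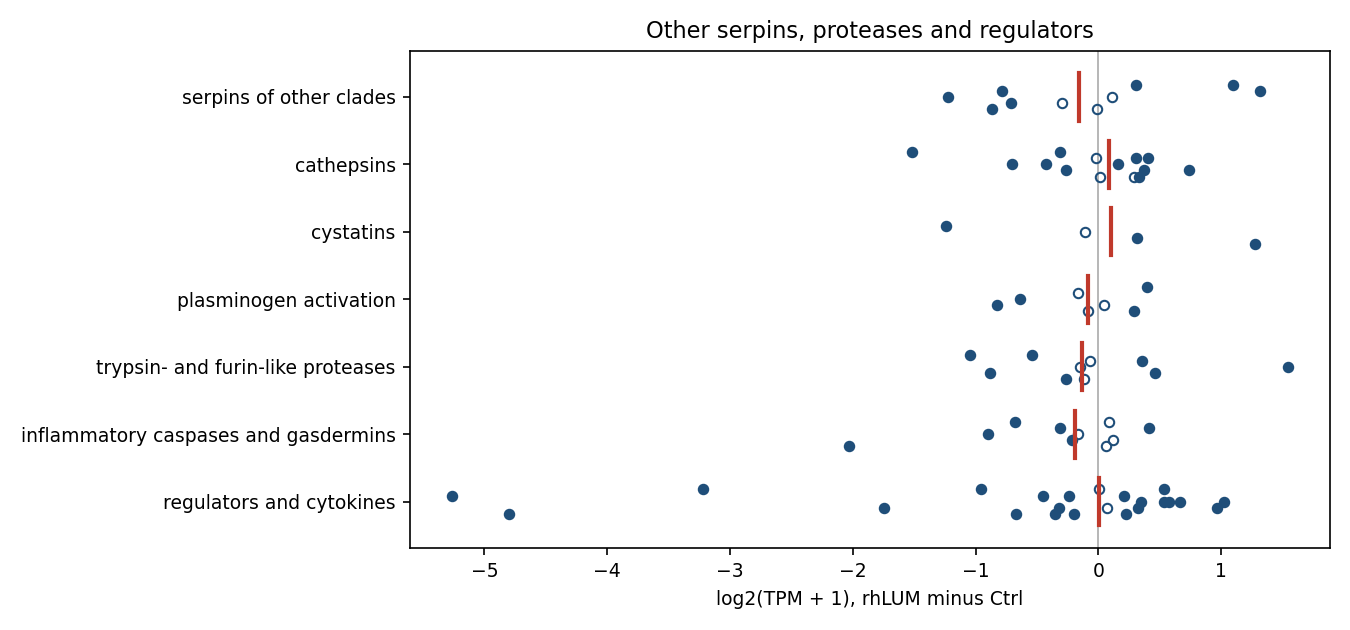
Log2 fold changes of tested genes in 7 lists (filled where adjusted p is under 0.05, red bars for list medians). List medians lie between -0.19 and 0.10, and the points below -3 are the cytokine genes IL6, IL1B and IL1A.

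The cell types the values could come from were checked by markers. Values are for human genes (GRCh38), so transcripts of host leukocytes, endothelium or fibroblasts may be largely missed. A marker near 0 therefore does not show that such host cells were absent. Where such a marker has a value, tumour cells and host reads placed on human genes cannot be told apart. Of 10 liver markers 8 were tested, of which 6 rose, ALB among them, and 2 did not pass, while GPC3 was at 0.29 TPM or less in all libraries. In bulk RNA, fewer cells of a type and less RNA per cell cannot be told apart. Squamous markers, the epithelium that SERPINB3 and SERPINB4 are named for, summed to 30.55 to 34.01 TPM in Ctrl and 23.33 to 25.89 in rhLUM. Of these 18 genes, 8 were at 0 throughout, KRT5, KRT1, IVL and SPRR3 among them, and 12 under 1 TPM in all libraries. KRT10 made up most of the squamous sums, with a mean of 20.99 TPM in Ctrl and 16.0 in rhLUM. Of the 5 tested, 1 rose and 3 fell. KRT6A rose (mean 0.51 to 2.06 TPM), and KRT10, PI3 (6.45 to 1.30) and TP63 (1.85 to 1.07) fell. The call of TP63 was lost with a replicate block (limma adjusted p = 0.0563). With 1 library left out, its limma adjusted p reached 0.0803. Among untested genes, KRT14 was higher in rhLUM (0.25 to 1.59) and DSG3 lower (0.72 to 0.48), both without overlap. The squamous markers thus did not all move one way. Their part in the fall of SERPINB3 and SERPINB4 was not tested. All 7 neutrophil markers were under 1 TPM in every library, with MPO, FCGR3B and S100A12 at 0. Of 8 monocyte markers 5 were under 1 TPM, PTPRC among them, and MARCO was at 0. The other 3 were called, CD68 (33.6 ± 0.81 to 58.1 ± 2.24 TPM) and LYZ (180.2 ± 2.05 to 241 ± 3.34) as higher and ITGAM (8.01 ± 0.69 to 3.84 ± 1.00) as lower (SD, n = 3). The summed monocyte markers ranged from 222.14 to 223.39 TPM in Ctrl and from 302.12 to 306.16 in rhLUM. Of 8 T and NK cell markers 7 were under 1 TPM, NKG7 at 0, and CD3D rose from 0.353 ± 0.14 to 1.79 ± 0.40 TPM (SD, n = 3).

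Endothelial markers summed to 21.64 to 23.01 TPM in Ctrl and 26.94 to 31.76 in rhLUM. Of 5, 3 were tested. PECAM1 rose by 0.59, CDH5 changed by -1.50 (3.10 ± 0.34 to 0.450 ± 0.053 TPM, SD, n = 3), and KDR did not pass. Fibroblast markers summed to 14.38 to 15.38 TPM in Ctrl and 10.0 to 13.62 in rhLUM. Of 6, 4 were tested, of which DCN, the proteoglycan decorin, fell from 7.96 ± 0.35 to 1.26 ± 0.32 TPM (SD, n = 3), a log2 fold change of -1.99. COL1A1 rose by 0.51, a call lost after scaling, and the other 2 tested did not pass. The part of these cell type markers in the differences of the clade B genes was not tested. Mitochondrially encoded genes took 20.6 ± 0.078% of TPM in Ctrl, against 14.4 ± 0.10% with rhLUM (SD, n = 3). On rescaling without them the log2 fold change of SERPINB1 was 0.23 and still passed.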

How the data were processed

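Per the labels' protocols, poly-A RNA of the xenografts was sequenced as paired reads of 151 bases. The submitters' processing notes name STAR 2.7.8 and RSEM 1.2.31 with GRCh38, with annotation, strand use and host-read removal not given in the sources used here. The deposited tables, 1 per library, hold TPM per the file headers. TPM keeps no depth, and a fall in abundant genes raises the share of all others. Rows that shared a symbol with another (2210) were left out.

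All genes averaging 1 TPM or more entered a limma 3.58.1 fit (R 4.3.3, trend) of log2(TPM + 1) on the group, with 4 residual degrees of freedom, and p-values were adjusted by Benjamini-Hochberg over all 14781 genes. Tests were two-sided, with a threshold of 0.05. The average was over all 6 libraries, so a gene could be kept through 1 group alone. Besides SERPINB7, this held for CASP1, IL6, PRSS22, CDH5, TNFSF14 and TNIP3, with an rhLUM mean under 1 TPM. It also held for PCSK5, CD3D and KRT6A, with a Ctrl mean under 1 TPM. With 3 against 3, the smallest exact permutation p is 0.1, and no such test is given. The labels name no batch.

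Members and lists were chosen with earlier results of these data known. In each list, up to 6 called genes without overlap were named by smallest p. The 5 genes nearest to SERPINB3 in profile and the genes between members were named too. CTSL, CTSS, PLAU, STAT3, ELANE, ALB, GPC3 and the other markers, KDSR and VPS4B were named after their values were seen. Positions and transcripts came from GENCODE release 29 by symbol, and promoter windows from RefSeq (GRCh38.p14). For each gene the principal transcript was used. Alternatives were median-of-ratios scaling, rescaling without mitochondrial genes, 0.1 as the pseudocount, testing low genes too, a replicate block, shared symbols summed, and leaving out each library. Some genes of the lists are not reported here by name.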

Additional observations from a re-analysis of the deposited data

How the results depend on the processing

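Among the 10 clade B genes, the count of those higher moved from 1 to 0 under median-of-ratios scaling, where SERPINB1 lost its call (log2 fold change 0.12, limma adjusted p = 0.0584). SERPINB6 passed as lower under that scaling (-0.27, limma adjusted p = 9.45e-04) and on rescaling without mitochondrial genes (-0.16, limma adjusted p = 0.00939). Under the other alternatives run, the counts of 1 higher and 5 lower were the same. SERPINB3, SERPINB4 and SERPINB7 passed as lower in every setting run. Median-of-ratios scaling moved the share of higher calls among all called genes from 66.6% to 48.0% and the median of all genes by -0.20. Rescaling without mitochondrial genes moved the median by -0.11, and plasminogen activation then had 4 genes lower and cystatins 2.

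No pairing of the libraries by the letters A, B and C was seen. Deviations of same-letter libraries from their group means correlated at 0.029, -0.023 and 0.084, and not every library correlated best with its own letter. With 3 libraries per group, these values cannot tell whether the letters mark a pairing by design. With a replicate block 1 member was higher and 5 were lower, and 6429 genes rose and 3219 fell in all. The block ended the call of SERPINB11 and of no other clade B gene. Without a filter on low values, 2 of the other clade B genes passed as lower, SERPINB11 and SERPINB13. For the 67 tested genes counted here, the alternatives gave 804 log2 fold changes, of which 12 lost a call, 8 of them COL1A1, 6 gained one and 4 changed sign. All 4 were of CTSS, which is not called as deposited (0.02). Its log2 fold change was -0.20 after median-of-ratios scaling, where it passed as lower, -0.10 on rescaling without mitochondrial genes, and between -0.0046 and 0.056 when 1 library was left out. CTSL and PLAU gained a call as lower under both scalings. The 67 genes did not include KRT6A, KRT10, PI3 and TP63, and the call of TP63 was lost with a replicate block. The depth is unknown, so it cannot be said what level of SERPINB2 or SERPINB10 would have been detectable.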
